A study of Mus musculus with 16 samples.

Results

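Transcripts of 10 heat shock protein genes were followed across 16 mouse livers: Hspa1a, Hspa1b, Hspa8, Hsph1, Dnajb1, Hspb1, Hsp90aa1, Hsp90ab1, Hspd1 and Hspe1. The genes were taken as a fixed list of symbols and matched to the gene identifiers of the count tables. No cutoff on a measured value chose them, but the list was written with earlier results of these data known. All 10 were found among 55471 gene identifiers, and all 10 were among the 17046 genes kept by the filter on low counts. Liver RNA was sequenced from 4 groups of 4 samples: 102-week-old mice without antibiotics (aged control), 102-week-old mice of the antibiotic groups named PAM I and PAM II, and 12-week-old mice without antibiotics (young). The series title places the antibiotic exposure in early life, so the exposed livers were collected long afterwards. The labels give no drug, dose, strain, sex, litter or cage, and do not say what PAM stands for or whether each sample came from a separate animal, so p-values measure the spread between these samples, which may in part be technical. In whole liver, fewer cells of a type and less RNA per cell cannot be told apart.

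Heat shock proteins are molecular chaperones that bind unfolded proteins and help them to fold, to be repaired or to be degraded. Some are made at all times in the unstressed cell, and others are induced when heat, oxidation or toxic compounds unfold proteins and the transcription factor HSF1 binds heat shock elements, which are repeats of the block GAA and its complement TTC. In liver they serve a high rate of protein synthesis and the handling of steroid receptors, and many of them vary with feeding and time of day. Hspa1a and Hspa1b encode the stress-inducible HSP70, and Hspa8 encodes its constitutive relative HSC70. Dnajb1 encodes a J-domain protein that delivers clients to HSP70 and starts its ATP cycle, and Hsph1 encodes an HSP110 that exchanges the nucleotide of HSP70. Hsp90aa1 and Hsp90ab1 encode the inducible and the constitutive form of cytosolic HSP90, the chaperone of kinases and steroid receptors. Hspb1 encodes a small heat shock protein that holds unfolded clients without using ATP. Hspd1 and Hspe1 encode the mitochondrial chaperonin HSP60 and its lid HSP10.

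Start-site sequences were searched for the heat shock element, because the members differ in how they carry it. RefSeq windows of build GRCm38.p6, from 250 bases before to 50 after each annotated start, were held for 7 of the 10 genes in 10 windows (Hspa8, Hsp90aa1 and Hsp90ab1 were not among them). The pair of blocks GAANNTTC or TTCNNGAA, read on both strands, was in 7 of these 10 windows and in 15.1% of 32851 mouse windows of the same length. The 3-block form GAANNTTCNNGAA or TTCNNGAANNTTC, which contains the pair, was in 4 of the 10 windows and in 0.603% of all windows. By gene, the pair was in 6 of 7 and the 3-block form in 3 of 7. The windows are not independent. Those of Hsph1 overlap, the Hspe1 window shares 285 bases with the second Hspd1 window, and those of the HSP70 copies are the same at 296 of 300 bases. The 160 bases before the start are given for Hspb1, Hspe1 and both HSP70 copies, with each pair of blocks in capitals.
Hspa1b, chr17:34959239-34959398, minus strand: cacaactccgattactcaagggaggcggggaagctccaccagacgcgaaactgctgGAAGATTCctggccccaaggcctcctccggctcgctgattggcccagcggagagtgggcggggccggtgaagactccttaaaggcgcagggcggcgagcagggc
Hspa1a, chr17:34972157-34972316, minus strand: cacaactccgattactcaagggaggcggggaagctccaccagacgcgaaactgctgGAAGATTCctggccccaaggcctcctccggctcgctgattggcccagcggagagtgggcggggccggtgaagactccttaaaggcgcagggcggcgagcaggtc
Hspb1, chr5:135887759-135887918, plus strand: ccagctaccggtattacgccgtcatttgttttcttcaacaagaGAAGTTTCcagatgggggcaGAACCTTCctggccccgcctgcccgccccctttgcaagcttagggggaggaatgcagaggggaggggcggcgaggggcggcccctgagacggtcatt
Hspe1, chr1:55087988-55088147, plus strand: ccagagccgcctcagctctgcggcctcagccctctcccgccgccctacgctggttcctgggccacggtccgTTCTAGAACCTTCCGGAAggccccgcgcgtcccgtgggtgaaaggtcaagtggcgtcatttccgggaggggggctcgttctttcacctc
The HSP70 copies were the same at 159 of these 160 bases, with the pair of blocks beginning at base -104 from the start in each. Hspb1 had separate pairs beginning at bases -117 and -97. Hspe1 had an unbroken run of blocks with pairs beginning at -89, -84 and -79, which is read from the other strand as part of the window of its neighbour Hspd1. Hsph1 carried the 3-block form with pairs beginning at 37 and 42 bases after its first annotated start, and another pair at -33. No pair of blocks was in either Dnajb1 window, which says only that these letters are not in those bases.

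Several members have close copies in the genome, which bears on how well their transcripts can be counted. Hspa1b (build GRCm38, chr17:34956436-34959238) and Hspa1a (chr17:34969190-34972156) lie 9951 bases apart on the same strand, and their coding sequences were the same at 1916 of 1926 bases (99.5%). Hspd1 (chr1:55077835-55088243) and Hspe1 (chr1:55088132-55091307) lie head to head and overlap by 112 bases on opposite strands. The transcripts were scanned in windows of 100 bases, the length of 1 read, for exact matches to any other annotated gene. No window of Hsp90ab1, Hsph1 or Dnajb1 matched another gene. Inside the coding sequence, the windows found in no other gene came to 26.9% for Hspa1a, 31.9% for Hspa1b, 21.8% for Hspa8, 30.4% for Hsp90aa1, 61.4% for Hspd1, 33.3% for Hspe1 and 1.75% for Hspb1, whose copy is the pseudogene Hsp25-ps1. Outside or across the ends of the coding sequence they came to between 72.4% (Hspa1a) and 100% (Hspd1). Per the file headers, fragments that aligned to several places were not counted, so the levels of these 7 members may be understated by an amount that was not measured, and the split of counts between the HSP70 copies is uncertain.

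**Figure D1:**
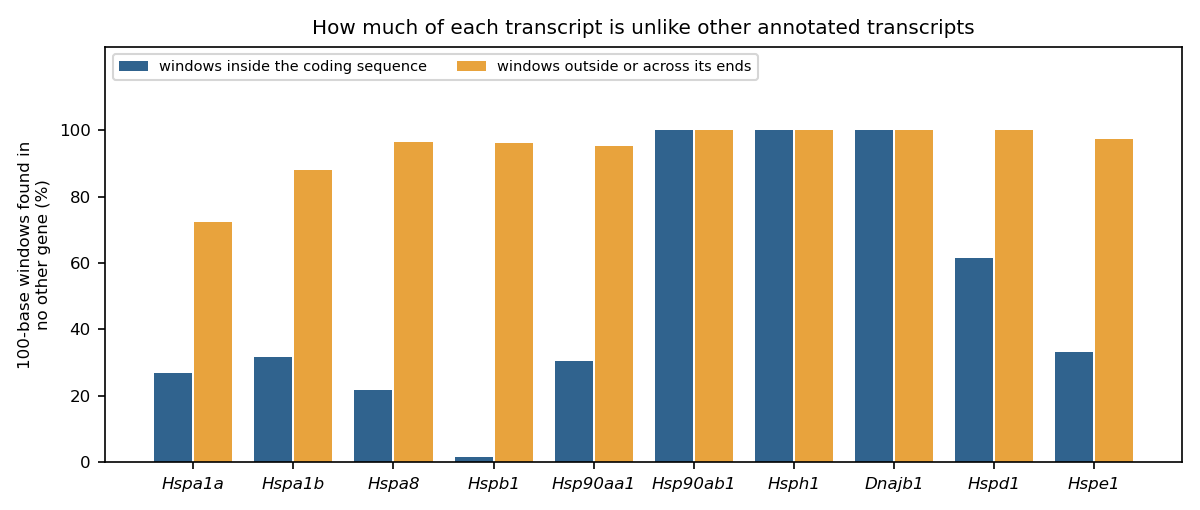
Share of the 100-base windows of each member's longest coding transcript that matched no other annotated gene exactly, in percent, for windows inside the coding sequence (blue) and for those outside it or across its ends (orange). Hsp90ab1, Hsph1 and Dnajb1 are at 100% in both, and the blue bar is lowest for Hspb1 at 1.75%.

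Each library held between 36968993 and 52090914 fragments assigned to genes. The labelled tissue was borne out by its markers, since 9 of 10 listed hepatocyte genes were matched and all 9 had fragments in every group, with sums between 67415 and 125732 CPM (the fragments of a gene relative to the library total, corrected by TMM for the make-up of each library). Libraries of 1 group were not alike in other cell markers. The summed CPM of 12 skeletal muscle genes ran from 0.745 to 110 over the 16 libraries, that of 10 Kupffer cell genes from 238 to 1767, and that of 10 B and T cell genes from 21.2 to 564. Young replicate 1 and aged control replicate 4 stood apart in clock genes: Dbp was at 45.8 CPM in the first, against 1.97 to 6.01 CPM in the other young livers, and at 17.1 CPM in the second, against 1.94 to 4.67 CPM in the other aged controls. Per the file headers, aged control and PAM I libraries came from column 1 of a plate and PAM II and young libraries from column 2, so comparisons across these columns cannot be told apart from the plate column.

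Members differed far more from each other than between groups. Levels per length were taken in TPM, which divide fragments by the summed exon length of the gene and scale each library to the same total. Unlike CPM here, TPM carry no TMM correction. Over all 16 libraries, Hsp90ab1 was the most abundant at 676 ± 87.3 TPM (SD, n = 16). Hspa8 followed at 369 ± 66.4, Hspd1 at 265 ± 48.5 and Hspe1 at 130 ± 16.8 TPM. The small heat shock protein Hspb1 (67.9 ± 25.5 TPM) and inducible Hsp90aa1 (60.4 ± 13.9 TPM) lay next to each other, and Hspb1 was above Hsp90aa1 in only 9 of 16 libraries. The HSP70 helpers Dnajb1 (15 ± 3.17 TPM) and Hsph1 (12.8 ± 5.13 TPM) were in that order in 13 of 16 libraries. That order depends on the length used. The exon length was 7266 bases for Hsph1 and 3204 for Dnajb1, against 3802 and 2996 bases in their longest coding transcripts. For Hspa8 these lengths were 4301 and 2394 bases, and for Hspe1 1474 and 774, so their distances to neighbours also depend on the length. Of all 100-base windows, 36.6% for Hspa8 and 100% for Hsp90ab1 matched no other gene. Uncounted fragments may therefore widen the gap between these 2 genes. Inducible HSP70 was the least abundant, with Hspa1b at 3.92 ± 2.1 TPM and Hspa1a at 0.319 ± 0.172 TPM, and fragments shared by the copies are missing from both values. Constitutive Hspa8 was above Hspd1 in 15 of 16 libraries, and each other neighbour in this order held its place in 16 of 16, although the ranges over all libraries were separate only between Hsp90aa1 and Dnajb1 and between Hspa1b and Hspa1a.

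Spread was widest in 3 of the 4 least abundant members. The SD of log2 CPM within groups was 0.78 for Hspa1a, 0.50 for Hsph1 and 0.49 for Hspa1b, and it was 0.13 for Hspe1 and 0.15 for Hsp90ab1. The highest library held 33 times the CPM of the lowest for Hspa1a, where 1 to 37 fragments were counted, and 5.18 times for Hspa1b, 4.43 times for Hsph1 and 1.42 times for Hsp90ab1. High values gathered in a few libraries. Young replicate 2 had the highest CPM of all 16 for 5 members, Hspa1a, Hspa1b, Hspa8, Hsp90aa1 and Hsph1. PAM I replicate 3 was highest for Hspb1 and Dnajb1, and PAM I replicate 4 for Hsp90ab1 and Hspe1. Aged control replicate 4 was lowest for Hsp90aa1, Hsp90ab1 and Hspd1.

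**Figure D2:**
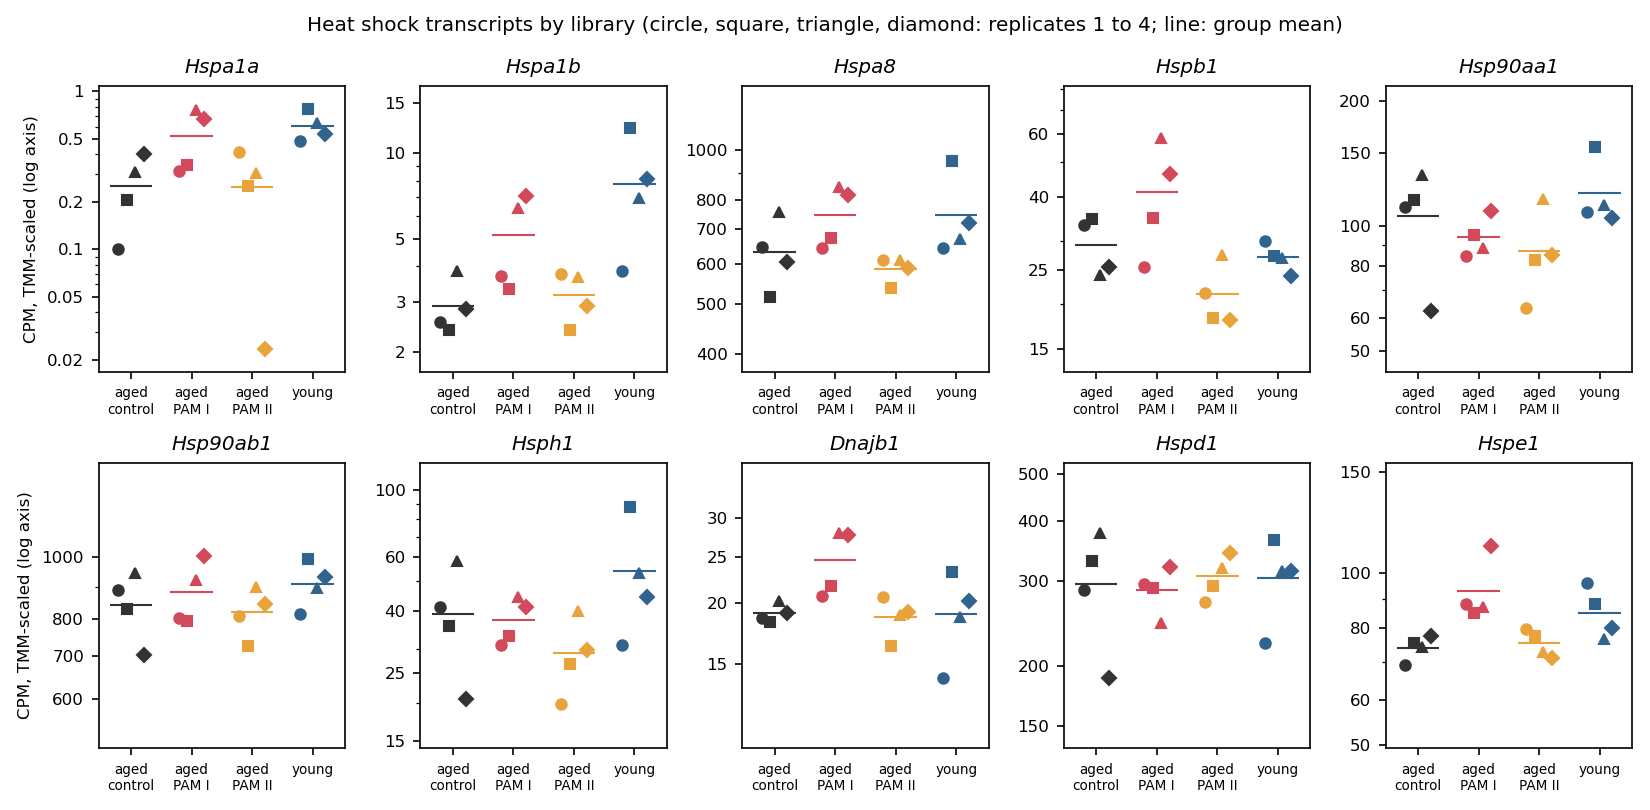
TMM-scaled CPM of each member in the 16 livers, on log axes that differ between panels; each symbol is 1 library (circle, square, triangle and diamond for replicates 1 to 4) and each line the group mean. Hspa1b is between 3.85 and 12.3 CPM in young livers and between 2.38 and 3.84 CPM in aged controls, and Dnajb1 and Hspe1 of PAM I lie above all aged controls.

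The comparison of aged control with young livers addressed age without antibiotics. It also crossed the plate columns, so age and column cannot be told apart in it. Inducible HSP70 held the member that was called. Hspa1b was at 3.85, 12.3, 6.95 and 8.10 CPM in young replicates 1 to 4 and at 2.54, 2.38, 3.84 and 2.83 CPM in aged controls. The groups did not overlap, but the lowest young liver and the highest aged control were 3.85 and 3.84 CPM. On the TPM scale, which lacks the TMM correction, they did overlap (2.44 TPM in young replicate 1, 3.35 TPM in aged control replicate 3). Hspa1b was lower in aged controls by 1.43 on the log2 scale (SE 0.32, 95% interval of the difference -2.11 to -0.75), at 0.371 of the young level. Its adjusted p was 0.0272 in edgeR's quasi-likelihood test with Benjamini-Hochberg adjustment. This was 1 of 10 members lower and 0 of 10 higher, where 1.31% of all 17046 genes were called lower and 1.92% higher (3.23% in either direction). By fragments, 1207 were counted for Hspa1b in young livers and 532 in aged controls, a young-to-aged ratio of 2.76 after TMM scaling of the library sizes (95% interval 2.49 to 3.06, counting error only).

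Among the 8 fits that left out 1 library, the log2 difference of Hspa1b moved most without young replicate 2, to -1.12. The call for Hspa1b depended on single libraries, and 5 of these fits lost it. It was lost without aged control replicate 1, 2 or 4 (adjusted p of 0.0626, 0.0639 and 0.0673) and without young replicate 2 or 4 (0.061 and 0.0742), and it was lost when only these 8 libraries were fitted (0.0736), while the log2 difference stayed between -1.76 and -1.12 in all 19 alternatives. DESeq2 gave an adjusted p of 0.000918 and limma voom 0.0104. With the muscle list as a covariate the log2 difference was -1.76, with a clock covariate -1.42, and without young replicate 1 and aged control replicate 4 it was -1.65, and Hspa1b was called in each. With both HSP70 copies summed, the log2 difference was -1.42 with an adjusted p of 0.0259. Other lists separated these groups too. The summed CPM of 11 immediate early genes was 377 to 1012 in young livers and 291 to 356 in aged controls. That of 10 B and T cell genes was 21.2 to 38.1 in young livers and 67.6 to 156 in aged controls, with Ighm called higher (adjusted p = 0.0101 by edgeR), and that of 8 endothelial genes was 242 to 287 and 138 to 224, with Clec4g called lower (adjusted p = 0.043). That of 6 bile duct (cholangiocyte) genes was 30.7 to 47.2 in young livers and 53.6 to 141 in aged controls. Hepatocyte sums overlapped, but of 9 log2 differences 8 were negative and 1 positive (median -0.42). Among them Serpina1c was called lower (-0.98, adjusted p = 0.0202 by edgeR). The part of these cells and genes in the result was not tested.

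Hspa1a, the other copy of inducible HSP70, had the same direction at a far lower level. It was at 0.488, 0.774, 0.631 and 0.536 CPM in young replicates 1 to 4 and at 0.101, 0.206, 0.307 and 0.401 CPM in aged controls. In CPM the groups did not overlap, as for Hspa1b and for 9.27% of all genes, while in TPM they did (0.293 TPM in young replicate 1, 0.341 TPM in aged control replicate 4). With 93 fragments in young livers and 46 in aged controls the log2 difference of -1.26 (SE 0.55) did not pass the test (edgeR, adjusted p = 0.222). Among the partners of HSP70, Hsph1 was at 31, 87.7, 53.4 and 44.5 CPM in young livers and at 41.3, 35.8, 58.4 and 20.5 CPM in aged controls. The groups overlapped, and the log2 difference of -0.47 (SE 0.32, 95% interval -1.15 to 0.20) did not pass. Dnajb1 averaged 19.0 ± 3.82 CPM in young and 19.1 ± 0.852 CPM in aged control livers (SD, n = 4 each), a log2 difference of 0.00 with a 95% interval of -0.30 to 0.30.

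None of the other 6 members passed the test between 12 and 102 weeks. Hspa8 was at 746 ± 140 CPM in young and 631 ± 99.4 CPM in aged control livers (SD, n = 4 each), a log2 difference of -0.24 with a 95% interval of -0.56 to 0.07. Hsp90ab1 was at 909 ± 74.1 and 843 ± 103 CPM, with an interval of -0.37 to 0.15, and Hsp90aa1 at 120 ± 23.7 and 105 ± 30.1 CPM, with an interval of -0.64 to 0.27. The mitochondrial pair had log2 differences of -0.04 for Hspd1 (-0.44 to 0.36) and -0.20 for Hspe1 (-0.42 to 0.02). Hspb1 stood at 27.1 ± 2.44 CPM in young and 29.4 ± 5.31 CPM in aged control livers, with a log2 difference of 0.12 (-0.33 to 0.57). Taking all 10 members, 8 differences were negative and 2 positive, with a median of -0.19 beside -0.01 over all genes tested. Scaling to total fragments with no composition factor shifted the median of all genes by 0.15 and gave a median of -0.06 for the members, an adjusted p of 0.0508 for Hspa1b and small positive differences for Hsp90ab1 and Hspd1.

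**Figure D3:**
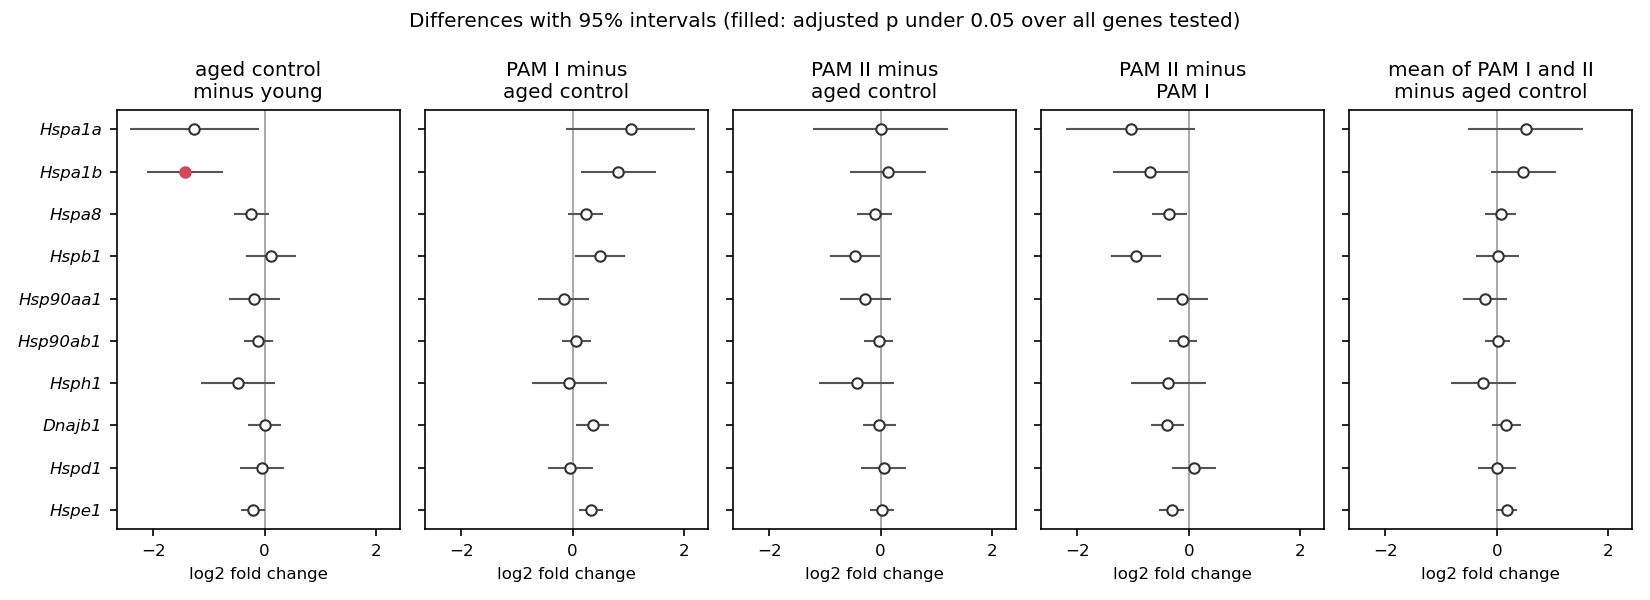
Log2 differences of the 10 members in the 5 comparisons, with 95% intervals from the edgeR fit; a filled point has an adjusted p under 0.05 over all genes tested. The filled point is Hspa1b at -1.43 for aged control minus young, and PAM II minus PAM I has its 9 negative points on the left.

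PAM I was compared with the aged controls within plate column 1, and no member passed the test. For any gene the edgeR test called 0 of 17046 (0%), with 1602 genes at an unadjusted p under 0.05 (9.4%), and DESeq2 called 16 and limma voom 0, none of them a member. The members nearest to a call were the chaperonin lid Hspe1, the J-domain protein Dnajb1, inducible Hspa1b and the small heat shock protein Hspb1, all with higher means in PAM I. Hspe1 was at 88.1, 85.2, 87.1 and 112 CPM in PAM I replicates 1 to 4 and at 69.1, 75.5, 74.1 and 77.6 CPM in aged controls. The groups did not overlap in CPM or in TPM (lowest PAM I liver 136 TPM, highest aged control 133 TPM), and the log2 difference was 0.33 (SE 0.10, unadjusted p = 0.00614, adjusted p = 0.506 by edgeR). Dnajb1 was at 20.8, 21.7, 28.0 and 27.7 CPM in PAM I and at 18.6, 18.3, 20.3 and 19.1 CPM in aged controls. In CPM these groups did not overlap either, which held for 5.47% of all genes, but in TPM they did (14.8 TPM in PAM I replicate 1, 15.5 TPM in aged control replicate 3). The log2 difference was 0.36 (SE 0.14, unadjusted p = 0.0208, adjusted p = 0.506).

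Much of the PAM I difference lay in replicates 3 and 4. Hspa1b was at 3.69, 3.31, 6.43 and 7.08 CPM in PAM I, so that replicates 1 and 2 lay within the range of the aged controls and replicates 3 and 4 above it. Its log2 difference was 0.82 (SE 0.32, unadjusted p = 0.0212, adjusted p = 0.506 by edgeR). Hspa1a was split in the same way, with 0.315 and 0.342 CPM in replicates 1 and 2 and 0.767 and 0.669 CPM in replicates 3 and 4. Hspb1 was at 25.5, 34.8, 58.2 and 46.1 CPM in PAM I and at 33.3, 34.5, 24.1 and 25.5 CPM in aged controls. The groups overlapped, and its log2 difference was 0.49 (SE 0.21, unadjusted p = 0.0352, adjusted p = 0.514). Other cell markers moved with this split: replicates 3 and 4 had a Kupffer cell sum of 1451 and 1201 CPM against 330 and 536 CPM in replicates 1 and 2, a B and T cell sum of 263 and 564 against 204 and 147 CPM, and a muscle sum of 2.30 and 1.96 against 40.5 and 41.8 CPM. The hepatocyte sum was 125732, 101667, 67415 and 102946 CPM in replicates 1 to 4. Of 12 clock genes, 9 log2 differences between PAM I and aged controls were negative and 3 positive, with none called. Of the negative ones, 3 had an unadjusted p under 0.05 by edgeR. The clock and the muscle list were examined only as covariates. The median over members was then 0.355 with the clock and 0.354 with the muscle list, beside 0.284 without them, and no member was called. The part of the other cells in the chaperone values was not tested.

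For the other members in PAM I, each interval of the difference included 0. The log2 difference was 0.06 for Hsp90ab1 (95% interval -0.19 to 0.32), -0.16 for Hsp90aa1 (-0.62 to 0.30), -0.06 for Hsph1 (-0.73 to 0.61) and -0.04 for Hspd1 (-0.44 to 0.36). Hspa8 averaged 745 ± 101 CPM in PAM I and 631 ± 99.4 CPM in aged controls (SD, n = 4 each), a log2 difference of 0.24 (-0.07 to 0.55). The median over the 10 members was 0.28, with 7 positive and 3 negative, beside 0.02 over all genes.

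PAM II against the aged controls gave 0 calls among the members and 0 of 17046 genes (0%) with edgeR, DESeq2 and limma voom, and 465 genes (2.73%) at an unadjusted p under 0.05. Hspb1 was the member with the largest difference, at 21.5, 18.3, 27.4 and 18.2 CPM in PAM II, where 3 of 4 livers lay below all aged controls and replicate 3 within their range. Its log2 difference was -0.46 (SE 0.21, unadjusted p = 0.0457, adjusted p = 1.0 by edgeR). Inducible Hspa1b was at 3.76, 2.38, 3.68 and 2.88 CPM, all within the range of the aged controls, with a log2 difference of 0.14 (95% interval -0.55 to 0.82). Hspa1a in PAM II replicate 4 rested on 1 fragment (0.0235 CPM), and the others were at 0.413, 0.253 and 0.304 CPM. Dnajb1 (-0.02, -0.32 to 0.27), Hspe1 (0.02, -0.20 to 0.24), Hspd1 (0.05, -0.34 to 0.45) and Hsp90ab1 (-0.04, -0.30 to 0.22) had log2 differences close to 0. Hsph1 and Hsp90aa1 had differences of -0.43 and -0.28 with intervals that included 0. No member had groups without overlap, which 2.1% of genes had, and the median over members was -0.03 beside 0.01 over all genes. Of 12 clock genes, 8 differences were positive and 4 negative, and 3 of the negative ones had an unadjusted p under 0.05 by edgeR. The clock and the muscle list were examined only as covariates. The median over members was then 0.04 with the clock and 0.07 with the muscle list, beside -0.03 without them, and no member was called. The part of the clock was not tested further, and these groups lay in different plate columns.

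The antibiotic groups were also set against each other, which tests whether their differences from the shared aged controls were unequal. No member and no gene passed with edgeR, DESeq2 or limma voom (0% of 17046), while 5 of 10 members and 4.56% of all genes had an unadjusted p under 0.05. Hspb1 showed the largest of these, with 25.5 to 58.2 CPM in PAM I and 18.2 to 27.4 CPM in PAM II, a log2 difference of -0.95 (SE 0.21, unadjusted p = 0.000427, adjusted p = 0.880 by edgeR). The groups overlapped in 1 liver of each, PAM I replicate 1 and PAM II replicate 3. Hspa8 was at 645, 673, 848 and 816 CPM in PAM I and at 609, 539, 609 and 589 CPM in PAM II, with no overlap in CPM and a log2 difference of -0.35 (SE 0.15, adjusted p = 0.880). Dnajb1 and Hspe1 did not overlap in CPM either, with 16.3 to 20.6 CPM and 71.0 to 79.9 CPM in PAM II against 20.8 to 28.0 CPM and 85.2 to 112 CPM in PAM I, and no overlap was seen for 4.66% of all genes. Their log2 differences were -0.39 and -0.30. In TPM all 3 genes overlapped: the highest PAM II liver, replicate 1, had 383 TPM of Hspa8, 17.4 TPM of Dnajb1 and 146 TPM of Hspe1, against lowest PAM I values of 342, 14.8 and 136 TPM. Of the 10 members 9 were lower in PAM II and Hspd1 was higher (0.09), with a median of -0.36 beside 0.01 over all genes. The groups lay in different plate columns, and the PAM I means rested in part on replicates 3 and 4.

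For the mean of both antibiotic groups against aged controls, the differences of the separate groups partly cancelled. No member passed, had an unadjusted p under 0.05 (5.64% of all genes had one) or lacked overlap between the groups (0.851% of all genes lacked it), and edgeR, DESeq2 and limma voom each called 0 genes (0%). The largest log2 differences were 0.52 for Hspa1a (95% interval -0.51 to 1.55) and 0.48 for Hspa1b (-0.11 to 1.07). Hspe1 had 0.18 (-0.01 to 0.37) and Hspb1, with opposite signs in the separate groups, 0.01 (-0.38 to 0.40). The median over members was 0.04 beside 0.01 over all genes.

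Members that work together were compared liver by liver in the 12 aged livers, in 5 pairs with Pearson's r and Spearman's rho of log2 CPM. Each had a permutation p of 100000 resamples, two-sided and adjusted over the 10 coefficients. Inducible Hspa1b and its J-domain partner Dnajb1 varied together (r = 0.942, permutation p = 7e-05, adjusted 7e-04, and rho = 0.853, permutation p = 0.00086, adjusted 0.0043). PAM I replicates 3 and 4 stood apart as the highest in both genes, and they were also the farthest from the median of Hspa1b. Without them r was 0.760 over 10 livers (permutation p = 0.00845), and with group means removed it was 0.924. The copies Hspa1a and Hspa1b had r = 0.684 (permutation p = 0.0156, adjusted 0.0261) and rho = 0.727 (permutation p = 0.00948, adjusted 0.0261). Without the 2 livers farthest in Hspa1a, aged control replicate 1 and PAM II replicate 4, r was 0.895 (permutation p = 0.00172). Without PAM I replicates 3 and 4, a choice made after seeing the data, r was 0.433 over 10 livers (permutation p = 0.226). Whether this relation passed thus depended on which livers were kept.

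The cytosolic HSP90 forms Hsp90aa1 and Hsp90ab1 had r = 0.706 (permutation p = 0.011, adjusted 0.0261) and rho = 0.706 (permutation p = 0.0137, adjusted 0.0261). Without the 2 livers farthest in Hsp90aa1, aged control replicate 4 and PAM II replicate 1, r was 0.611 (permutation p = 0.0607), so it no longer passed. It was 0.738 with the group means removed (permutation p = 0.00489) and 0.792 without PAM I replicates 3 and 4 (permutation p = 0.00638). Hspa8 and the exchange factor Hsph1 had r = 0.570 (permutation p = 0.0528, adjusted 0.066) and rho = 0.643 (permutation p = 0.0282, adjusted 0.0403), and r was 0.494 (permutation p = 0.141) without the 2 farthest livers. No relation was detected for the head-to-head pair Hspd1 and Hspe1, with r = -0.0832 (permutation p = 0.777, adjusted 0.777) and rho = -0.259 (permutation p = 0.417, adjusted 0.464), and r = -0.141 without the 2 farthest livers. In aged control replicate 4, for example, Hspd1 had its lowest value of all 16 livers (188 CPM) while Hspe1 was the highest of the aged controls (77.6 CPM).

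**Figure D4:**
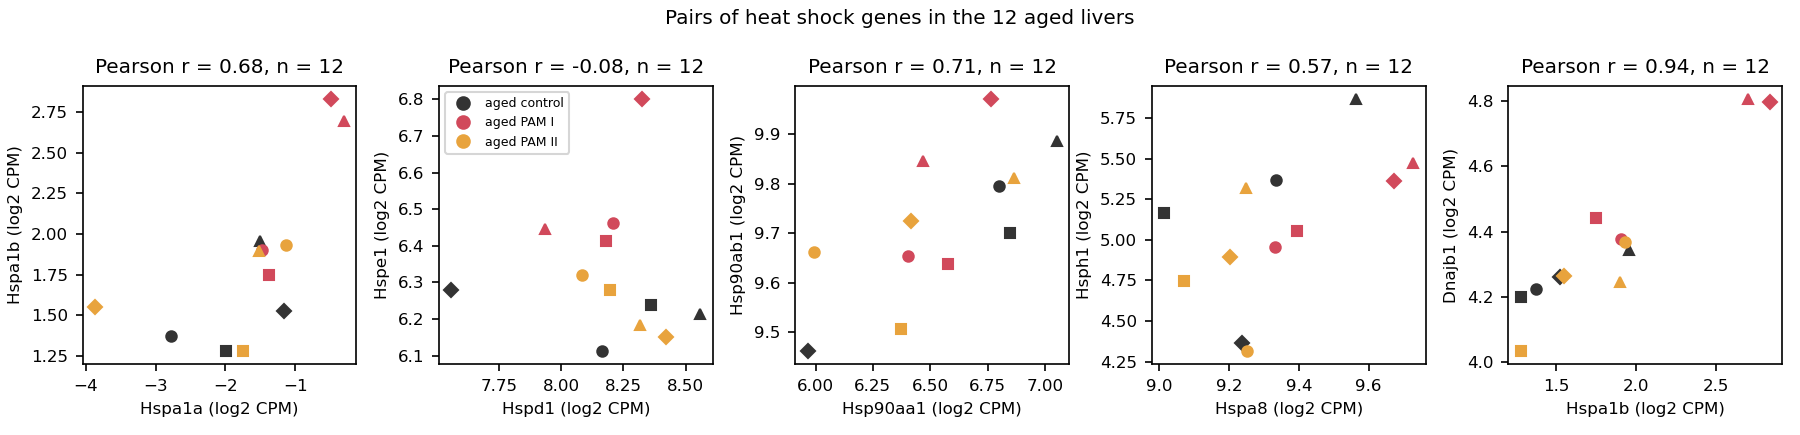
Log2 CPM of 5 pairs of members in the 12 aged livers (black aged control, red PAM I, yellow PAM II; circle, square, triangle and diamond for replicates 1 to 4), with Pearson's r above each panel. Dnajb1 follows Hspa1b with PAM I replicates 3 and 4 at the top right, and Hspe1 shows no clear trend with Hspd1.

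Across all 16 livers, some members followed the rest of the list more than others. Pearson's r with the mean of the other 9 standardized members was 0.865 for Hspa8, 0.843 for Hsp90ab1 and 0.816 for Hspa1b, and it was 0.307 for Hspd1. These values describe livers that share group and library make-up and carry no test. The mean standardized level of the members was highest in young replicate 2 (1.36) and PAM I replicate 4 (1.19) and lowest in aged control replicate 4 (-1.01) and PAM II replicate 2 (-0.92). Of 10870 other protein-coding genes, the 6 whose log2 CPM was most like that mean were Ahsa1 (r = 0.895), Prcc (0.856), Stip1 (0.847), Cct3 (0.835), Cct7 (0.831) and Bop1 (0.812). Ahsa1 stimulates the ATPase of HSP90, Stip1 links HSP70 with HSP90, and Cct3 and Cct7 are subunits of the cytosolic chaperonin TRiC. With group means removed, r was between 0.734 (Cct7) and 0.835 (Ahsa1).

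Other genes of the chaperone network were taken from lists written with general knowledge of it. With age, 2 of them passed the edgeR test. Ahsa2, a relative of Ahsa1, was at 37.4 ± 1.53 CPM in young and 28.9 ± 1.66 CPM in aged control livers (SD, n = 4 each), and fell by 0.37 on the log2 scale (SE 0.09, adjusted p = 0.0312). It was 1 of 14 measured HSP90 co-chaperones lower, with 0 higher and a median of -0.16. Hsf2bp, which binds the heat shock factor HSF2 and is best known from meiotic recombination, rose from 0.556 ± 0.382 CPM to 3.47 ± 0.392 CPM, by 2.62 on the log2 scale (SE 0.37, adjusted p = 0.0017). Of the 7 measured heat shock factors and their binding proteins it was the 1 called higher, and none was called lower. By sign, 4 of the 7 differences were negative and 3 positive. Hsbp1l1 came nearest to a call among the others, with -1.01 (SE 0.28, adjusted p = 0.0618 by edgeR). Hsf1, the main factor of the heat shock response, had a log2 difference of -0.22 (SE 0.16) and Hsf2 of -0.02 (SE 0.11).

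The remaining chaperone lists held no call with age. None passed among 16 J-domain proteins (median -0.07), 9 exchange and regulatory factors of HSP70 (median -0.20), 8 other HSP70 family members (-0.04), 5 other small heat shock proteins (0.06), 13 mitochondrial chaperones and proteases (-0.11), 14 TRiC and prefoldin subunits (-0.11) and 14 chaperones of the endoplasmic reticulum (0.07), where all genes had -0.01. The J-domain protein Dnaja4 was nearest in its list, at 5.26 ± 1.02 CPM in young and 3.50 ± 0.219 CPM in aged control livers (log2 difference -0.59, adjusted p = 0.105). The HSP70 exchange factor Bag1 had -0.31 (adjusted p = 0.126) and the prefoldin subunit Pfdn2 -0.50 (adjusted p = 0.117). By p, Dnajc2 (-0.11, adjusted p = 0.547), Bag6 (-0.22, 0.204) and Pfdn6 (-0.54, 0.276) came next in these lists. Hspa2, an HSP70 best known from the testis, had 0.57 (adjusted p = 0.271) and Hspa12a -0.35 (0.366). The small heat shock proteins Hspb2 and Hspb6 went in opposite directions, with 1.07 (adjusted p = 0.275, at 0.233 CPM in young livers) and -0.28 (0.433). The mitochondrial proteases Clpp and Lonp1 had -0.36 (0.231) and -0.22 (0.366), and Dnajc10 and Pdia4 of the endoplasmic reticulum 0.30 (0.258) and 0.29 (0.549). The clock genes Npas2 and Tef, first of 12 by p with none called, had 0.82 (0.101) and -0.58 (0.255). Of the 14 TRiC and prefoldin differences 13 were negative. In the 11 immediate early genes 1 rose, Fosb (2.14, SE 0.45, adjusted p = 0.0155), and 2 fell, Egr1 (-2.51, SE 0.42, adjusted p = 0.00742) and Ier2 (-1.10, SE 0.23, adjusted p = 0.0171), so the fall of Hspa1b stood beside changes of early response genes in both directions.

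No gene of these lists passed in a comparison of the antibiotic groups. In PAM I against aged controls, 13 of 14 TRiC and prefoldin differences and 12 of 14 HSP90 co-chaperone differences were positive (medians 0.12 and 0.04), while all 14 chaperones of the endoplasmic reticulum were negative (median -0.23, lowest adjusted p = 0.582). Hspa5, the HSP70 of the endoplasmic reticulum, had a log2 difference of -0.47 (SE 0.31) there, against 0.24 for its cytosolic relative Hspa8. In PAM II, 13 of 14 chaperones of the endoplasmic reticulum were again negative against the same controls (median -0.31), and HSP90 co-chaperones had a median of -0.03. Between the antibiotic groups, Ahsa1 had -0.27 and Ahsa2 -0.21 in PAM II minus PAM I, each with an adjusted p of 0.880.

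**Figure D5:**
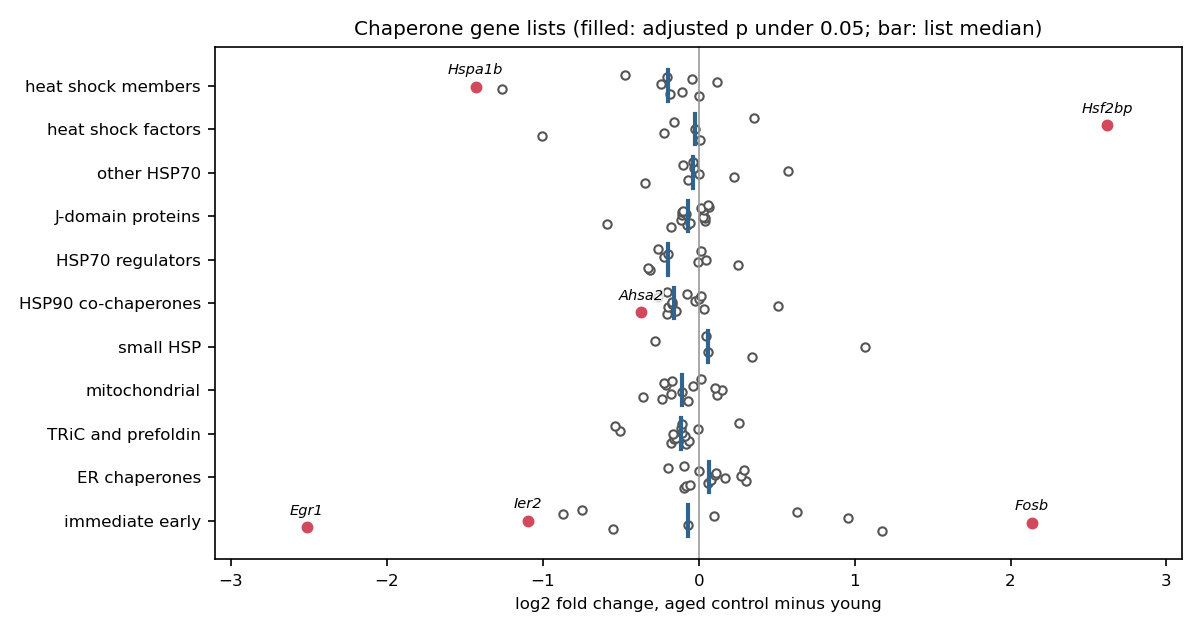
Log2 differences for aged control minus young of the members and of 10 gene lists, 1 point a gene, with a bar at each list median; filled points have an adjusted p under 0.05. Hspa1b (-1.43), Hsf2bp (2.62), Ahsa2 (-0.37) and the immediate early genes Egr1, Ier2 and Fosb are filled, and most other points lie close to 0.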

How the data were processed

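Liver RNA of 16 mouse samples was sequenced as paired 100-base reads. Per the submitters' processing notes, reads were trimmed with Trimmomatic 0.38 and aligned to mm10 with HISAT2 2.1.0. Per the file headers, the authors counted fragments per gene with featureCounts 1.5.0-p2, strand setting 1 and the Ensembl release 99 annotation of GRCm38, and the deposited values are raw counts of fragments. GENCODE M21 gave symbols for 55230 of 55471 identifiers.

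Counts were filtered with filterByExpr, scaled by TMM and fitted in 1 quasi-likelihood model over all 16 libraries (edgeR 4.0.16, R 4.3.3), with Benjamini-Hochberg adjustment over 17046 genes and a threshold of 0.05. Log2 CPM used a prior count of 2, and TPM used summed exon lengths and no TMM factor. Alternatives were RLE scaling, other filters, DESeq2 1.42.0, limma 3.58.1 voom, fits of only the groups compared, clock and muscle covariates and leaving out each library. Chosen after seeing the data were summed HSP70 copies, scaling to total fragments, and pairs without PAM I replicates 3 and 4.

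Members and lists were chosen with earlier results of these data known. The text names every member and the 6 genes most like the mean of the members. From each chaperone, clock and immediate early list it names up to 4 called genes, or otherwise up to 2 by smallest p with age. Cell marker lists were given as sums and counts, without this rule. Outside this rule, Hsf1, Hsf2, Hsbp1l1, Hspa5, Ahsa1 and Ahsa2 in the antibiotic comparison, Ighm, Clec4g, Serpina1c and Dbp were named after their values were seen. A free-text field labels the 12-week samples as aged, and the title, age and group fields, which give them as young, were followed.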

Additional observations from a re-analysis of the deposited data

Results flagged for a closer look

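Hspe1 in PAM I replicate 4 (112 CPM) lay far above the other 3 PAM I livers (85.2 to 88.1 CPM): its gap to the nearest, divided by the range of the group on the log2 scale, was 0.876, beyond the 95% limit of Dixon's ratio for 4 values. Chance passes this limit in about 5% of groups, and 1 of the 40 sets of a member and a group passed. The other 3 PAM I livers also lay above all aged controls in Hspe1.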

How the results depend on the processing

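With age, the count of members called lower was 1 and ran from 0 to 1 over the fits that left out a library. It was 0 with only the compared groups fitted and 0 with scaling to total fragments. The cause was not tested. With age, the direction of Hspa1b held in all 19 alternatives and the call in 12 of them. No member was called in an antibiotic comparison under any alternative run. Genes called with age, 551 in the model of all libraries, were 1343 with DESeq2, 198 with only the compared groups, 298 with the muscle covariate, 155 without aged control replicate 4 and young replicate 1, 284 without aged control replicate 4, 271 without young replicate 1 and 199 without young replicate 4, and genes called for PAM I were 16 with DESeq2 and 0 with limma voom. Leaving out each aged library moved r between 0.909 and 0.962 for Hspa1b and Dnajb1, 0.594 and 0.838 for Hspa1a and Hspa1b, 0.586 and 0.753 for the HSP90 forms, 0.498 and 0.676 for Hspa8 and Hsph1, and -0.358 and 0.00139 for Hspd1 and Hspe1. For Hspa1a and Hspa1b, r was 0.537 with group means removed and 0.433 without PAM I replicates 3 and 4, and for the HSP90 forms it was 0.535 with total fragments, each with a permutation p above 0.05. Hspa1a fell out under the stricter filter, so it has no value there. No paired analysis was possible because the labels number no replicates and link no animals across groups, and the numbers used here only follow the order of the samples.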
